A study of Mus musculus with 20 samples.

Results

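The genes described here build and serve the nuclear pore: nucleoporins, importins, exportins, transportins and the GTPase Ran with its direct regulators. They were taken by symbol, as the protein-coding genes of the GENCODE mouse annotation whose names begin with Nup, Ipo, Xpo, Kpna, Kpnb or Tnpo followed by a number (or Xpot), or are Ran, Rangap1 or Ranbp followed by a number. This gave 51 genes of the 55487 identifiers in the count table, 21974 of which are protein-coding. Of the 51 genes, 49 passed the filter on low counts and were tested among 12799 genes. Nup62cl, a Nup62-like gene, had 0 counts in every library, and Kpna7, an importin alpha gene, had at most 1 count, so neither was tested. Nupl1, an older symbol of the channel nucleoporin Nup58, is not reached by the rule.

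RNA was sequenced from BV-2 cells, an immortalised wild-type mouse microglial line derived from brain cultures, in 4 groups of 5 cultures. Young cells were control cells at a low passage, and aged cells were the same line after long-term cultivation. Cultures of each age were left untreated or exposed to LPS, a bacterial ligand of the receptor TLR4, at 100 ng/ml for 6 hours. Ageing here is therefore extended time in culture of a dividing line, not the age of an animal, and the sources used here do not say whether the 5 aged cultures came from separate long-term cultivations, so the p-values measure the spread between these cultures only. The batch numbers 1 to 5 in the labels are also the replicate numbers, and each batch held 1 culture of every group.

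Proteins above a small size cross the nuclear envelope only through nuclear pore complexes. The pore is built of stacked rings of nucleoporins, with a channel lined by flexible repeats, filaments on the cytoplasmic side and a basket on the nuclear side. Importins bind cargo in the cytoplasm and release it when they meet Ran-GTP in the nucleus, whereas exportins bind cargo together with Ran-GTP and release it once Rangap1 and its partners trigger GTP hydrolysis outside. In microglia, LPS signalling through TLR4 ends in the nucleus, because NF-kappaB and other factors must be carried in by this machinery, and importin alpha proteins carry cargo with a classical nuclear localisation signal by bridging it to importin beta, encoded by Kpnb1.

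Total counts per library ranged from 11371508 to 16829292. All 12 microglial marker genes were detected, with P2ry12 and Cx3cr1 low, whereas 4 of 5 astrocyte, 4 of 5 neuronal, 3 of 5 oligodendrocyte and 5 of 5 fibroblast markers stayed at or below 3 counts in every library. The microglial markers summed to 2056 to 2692 CPM in young and 1722 to 2240 CPM in aged untreated cultures, and to 2334 to 3127 and 1914 to 2609 CPM in young and aged LPS-treated cultures. CPM is the count of a gene per 1000000 counts of the TMM-scaled library size. Single microglial markers moved in both directions with LPS. In young cultures the mean of Spi1 rose from 278 to 654 CPM, whereas that of Trem2 fell from 326 to 197 CPM. The LPS label was checked with Tnf, a cytokine gene, whose mean rose from 24.5 to 822 CPM in young and from 16.6 to 447 CPM in aged cultures.

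Per kilobase of exon, the Ran system and the main import receptors were the most abundant members in young untreated cultures. Ranbp1 led with 207 ± 8.2 CPM per kb (SD, n = 5), followed by Ran with 160 ± 9.2 and Kpnb1 with 150 ± 7.3, and the levels of Ran and Kpnb1 lay within their combined spread. Ipo5 followed at 116 ± 4.6 CPM per kb, Rangap1 at 70.6 ± 3.4 and the exportin gene Xpo1 at 59.9 ± 2.4. Among pore components the inner ring gene Nup188 was highest at 53.8 ± 1.9 CPM per kb, and the inner ring gene Nup35 was low at 4.82 ± 0.19. The import receptor genes Ipo8, at 4.38 ± 0.21, and Ranbp6, at 2.00 ± 0.17, were the lowest of the well-measured members. The rank of Ipo8 depends on its annotated exon length of 15793 bases, as it was at 69.2 CPM against 16.2 CPM for Nup35. The membrane ring gene Nup210l stood far below all of them at 0.0928 ± 0.015 CPM per kb and never exceeded 23 counts in a library.

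**Figure D1:**
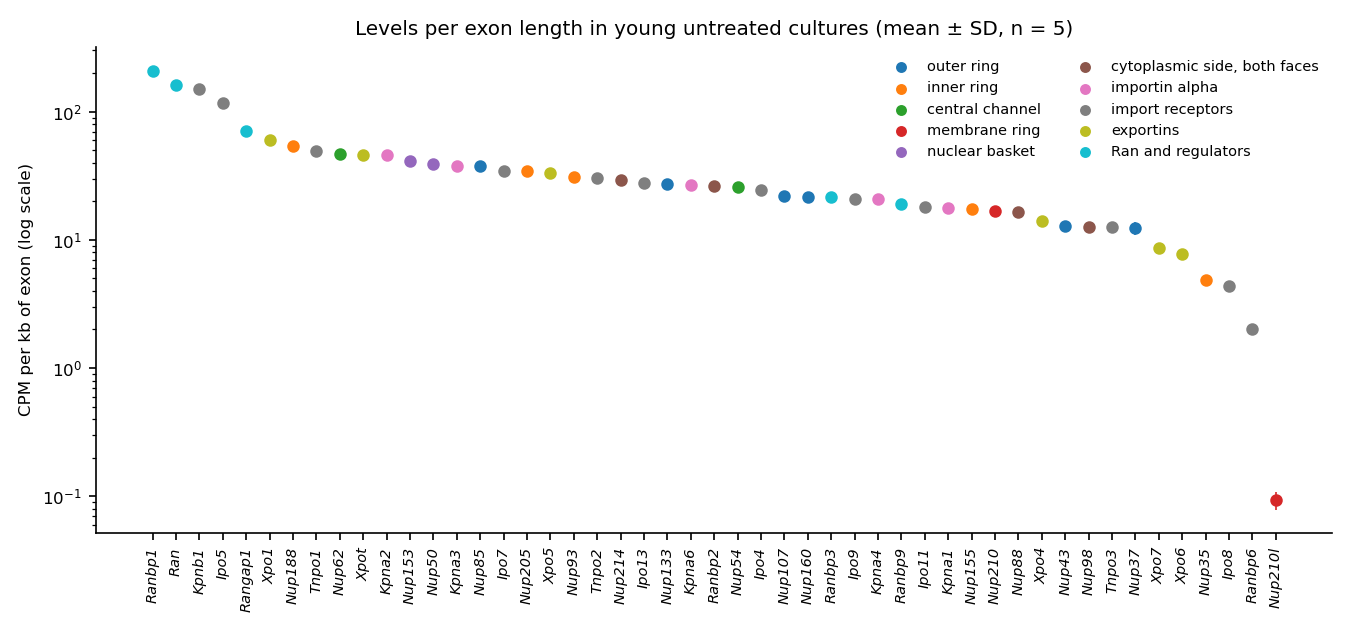
CPM per kilobase of exon (log scale) of the 49 tested members in young untreated cultures, ordered by level and coloured by role, with the mean and SD of 5 cultures. Ranbp1, Ran, Kpnb1 and Ipo5 lie above 100 CPM per kb, and Nup210l lies far below the rest at 0.0928.

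The question put to the LPS comparison was how the transport machinery responds to an inflammatory stimulus at each age. After LPS the members moved in both directions. In young cultures 19 of the 49 tested members rose and 15 fell (edgeR's quasi-likelihood test, adjusted p below 0.05 over all genes tested), against a background of 64.6% of all genes called, 31.2% higher and 33.5% lower. In aged cultures 17 rose and 12 fell, against 54.4% of all genes called, 27.5% higher and 26.9% lower. The median log2 fold change of the members was 0.031 in young and 0.079 in aged cultures, beside -0.011 and 0.0005 over all genes tested. Of the young comparison's members, 29 had groups that did not overlap, against 49.1% of all genes, and in the aged comparison 22 did, against 40.1%. The share of members called was thus close to that of all genes, and the results below concern which members moved and how far. RNA was taken from whole cultures, so a change in the share of cells expressing a gene and a change per cell cannot be told apart.

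The split between higher and lower calls depended on scaling. With library sizes alone in place of TMM factors, the median of all genes shifted to -0.23 in young and -0.16 in aged cultures, and the called members became 11 higher and 26 lower in young and 6 higher and 19 lower in aged cultures. The estimates of Kpna1, Nup54 and Ran in young cultures and of Kpna1 and Nup98 in aged cultures then fell below 0, none of them past the threshold. The calls of Ipo5, Kpnb1, Nup160, Nup98 and Ranbp2 in young cultures, and of Ipo13, Ipo7, Kpna6, Kpnb1, Nup160, Ran, Ranbp1, Ranbp2 and Tnpo2 in aged cultures, were lost with it. Leaving out 1 replicate number removed, in young cultures, the calls of Kpna1 (replicate 5), Nup160 and Nup54 (replicate 1) and Nup214 (replicate 2 or 5). In aged cultures it removed those of Kpna1 (replicate 1, 4 or 5), Nup160 (replicate 3), Nup43 (replicate 2, 3 or 5), Ran (replicate 2), Ranbp2 and Ranbp3 (replicate 1) and Ranbp6 (replicate 3 or 5). All LPS changes below are changes relative to the TMM scale, on which the median gene stays near 0.

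**Figure D2:**
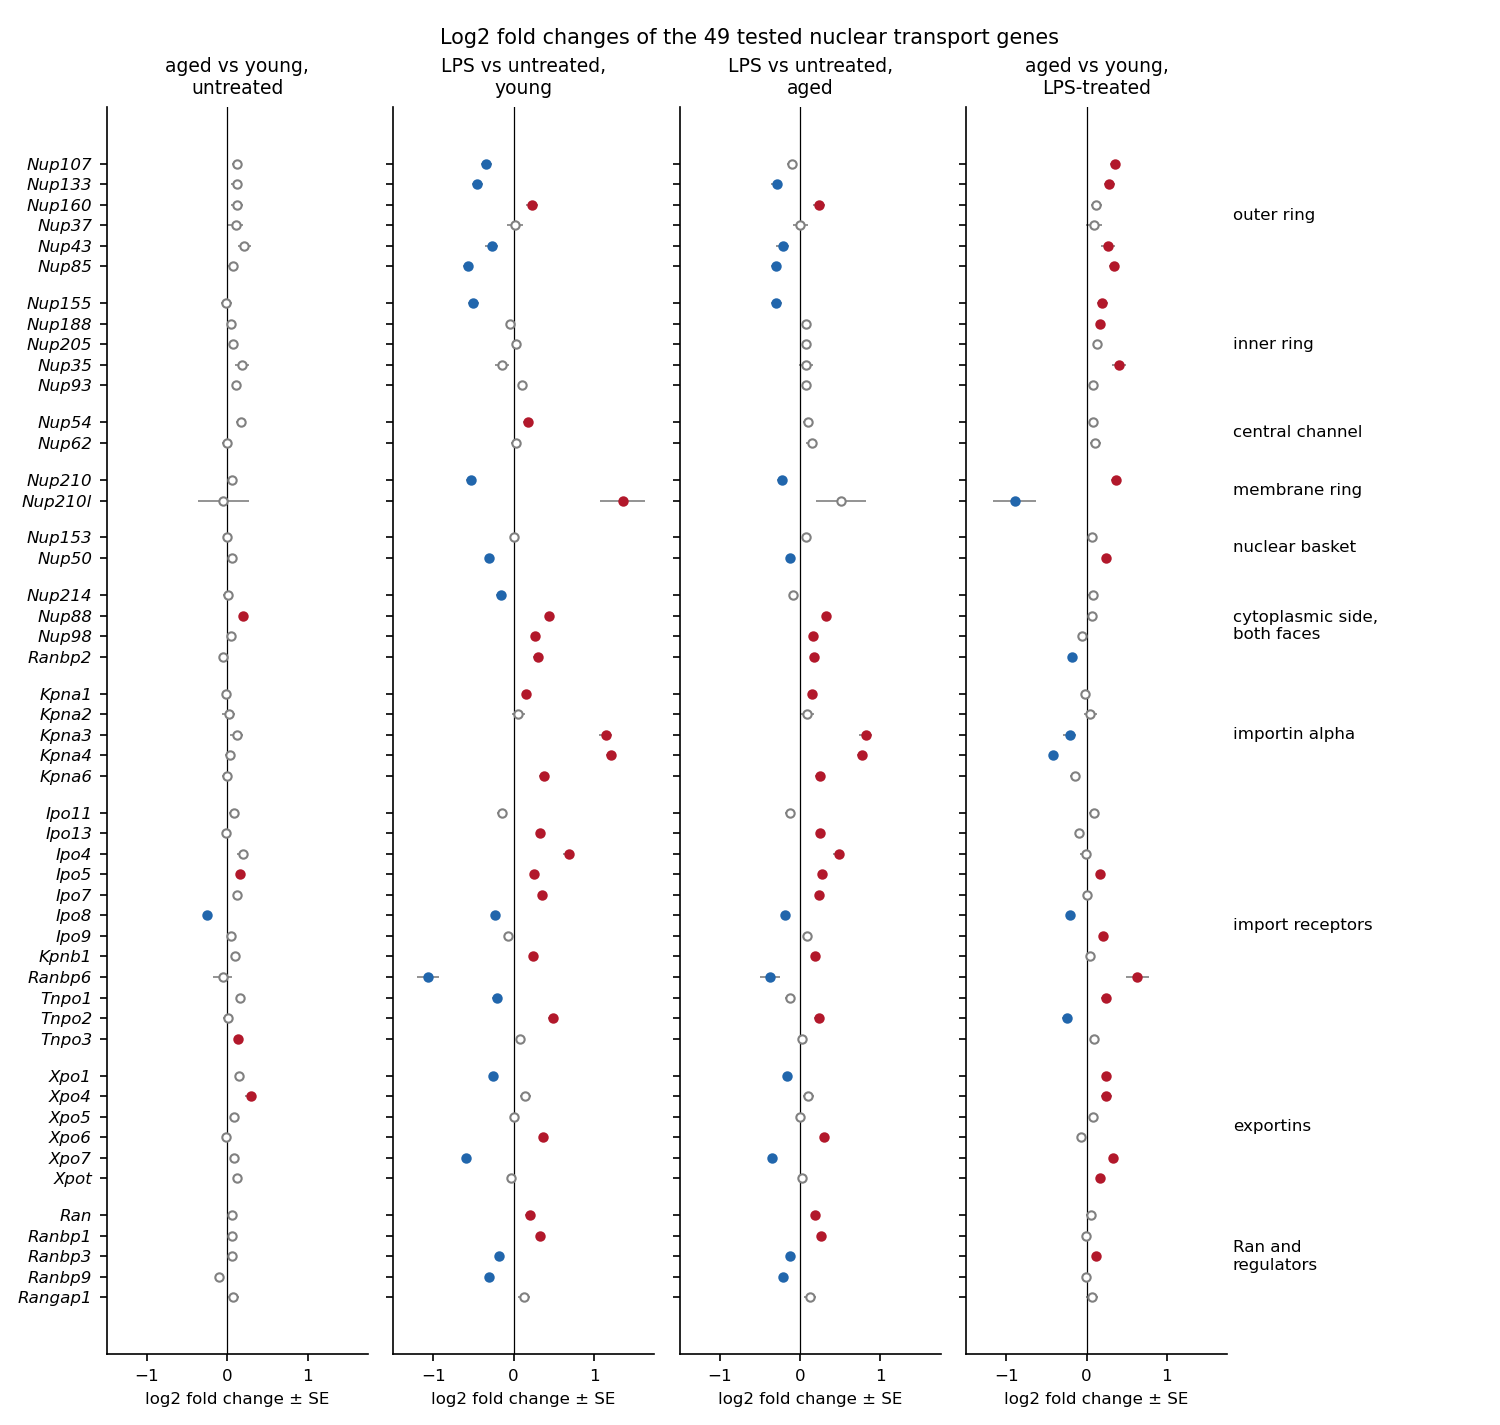
Log2 fold changes with SE of the 49 tested members, grouped by role, in the 4 comparisons of groups of 5 cultures, with red points called higher, blue points called lower and open points not called at an adjusted p of 0.05. The importin alpha genes Kpna3 and Kpna4 lie farthest to the right with LPS among well-measured members, and Ranbp6 farthest to the left.

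The 2 LPS comparisons rest on separate cultures. Of all 12799 genes tested, 6449 were called at both ages. Called higher at both ages were 17 members: Kpna1, Kpna3, Kpna4, Kpna6, Kpnb1, Ipo4, Ipo5, Ipo7, Ipo13, Tnpo2, Xpo6, Nup88, Nup98, Nup160, Ran, Ranbp1 and Ranbp2. Called lower at both ages were 12 members: Nup43, Nup50, Nup85, Nup133, Nup155, Nup210, Ipo8, Ranbp3, Ranbp6, Ranbp9, Xpo1 and Xpo7. Those that rose included 4 importin alpha genes and 6 import receptors, and those that fell included 3 outer ring genes with Nup155, Nup210 and Nup50 and the exportins Xpo1 and Xpo7. Nup54 and Nup210l were called higher, and Nup107, Nup214 and Tnpo1 lower, in young cultures but not in aged cultures, and the difference between ages was not called for any of these 5. The remaining 15 members were called at neither age.

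Promoter sequence was available for 41 of the 51 members in the RefSeq windows of build GRCm38.p6, which reach from 250 bases before to 50 bases after each annotated start. The E-box CACGTG, which reads the same on both strands, was present in 9 of the 41 promoters (22%), against 12.2% of tested protein-coding genes and 7.15% of all windows. It was present in 6 of the 15 members with a window that were called higher with LPS in young cultures (40%) and was not found in the 11 called lower. The other members with an E-box, Nup93, Nup188 and Xpot, were called with LPS at neither age. The 6 called higher in young cultures are shown, with the E-box in capitals and the other bases in lower case. The stretches run 5′ to 3′ on the strand of the gene, and Tnpo2 carries 2 E-boxes.
Ran (chr5:129020008-129020073, + strand): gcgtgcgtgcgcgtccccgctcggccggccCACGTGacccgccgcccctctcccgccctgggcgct
Ranbp2 (chr10:58446735-58446800, + strand): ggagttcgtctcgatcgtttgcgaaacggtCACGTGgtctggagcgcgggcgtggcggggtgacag
Ipo7 (chr7:110018148-110018213, + strand): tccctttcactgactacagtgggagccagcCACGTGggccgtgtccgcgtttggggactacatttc
Nup54 (chr5:92435264-92435329, - strand): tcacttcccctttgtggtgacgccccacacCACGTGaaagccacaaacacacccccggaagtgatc
Tnpo2 (chr8:85036708-85036812, + strand): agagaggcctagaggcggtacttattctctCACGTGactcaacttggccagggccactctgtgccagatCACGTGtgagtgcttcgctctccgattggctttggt
Ipo4 (chr14:55635653-55635682, - strand): tgtcggagtctcCACGTGccgatcctcccc
The E-boxes of Ran, Ranbp2, Ipo7 and Nup54 began 118, 87, 137 and 100 bases before the annotated start, those of Tnpo2 began 155 and 116 bases before it, and that of Ipo4 began at base 15 of the transcript. With library sizes alone, the estimates of Ran and Nup54 in young cultures turned below 0 and the call of Ranbp2 was lost. Nup54 was not called with LPS in aged cultures.

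Windows were also searched on both strands for the CCAAT box, the CHR element TTTGAA, the ETS motif CCGGAAG and the usual NF-kappaB consensus. The CCAAT box was in 51.2% of the members' windows and 43.5% of those of tested protein-coding genes, TTTGAA in 22% and 14.2%, CCGGAAG in 17.1% and 22.3%, and the NF-kappaB consensus in 4.88% and 6.23%. Over all windows the shares were 37.4%, 17.9%, 8.86% and 4.51%. TTTGAA split by direction as the E-box did, in 5 of the 15 members called higher with LPS in young cultures (33.3%) and 0 of the 11 called lower. The CCAAT box was in 53.3% of those called higher and 45.5% of those called lower, and CCGGAAG in 13.3% and 27.3%. Shares among all genes called with LPS were not computed for any motif. The NF-kappaB consensus was found in Xpo1 and the undetected Nup62cl only, and the Xpo1 match is shown because Xpo1 was called lower with LPS at both ages.
Xpo1 (chr11:23255951-23256020, + strand): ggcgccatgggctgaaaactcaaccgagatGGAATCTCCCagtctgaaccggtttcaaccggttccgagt
The capitals mark the match, which lies on the opposite strand and begins 60 bases before the start. None of the capital stretches printed here overlapped a match of another motif searched. Each match is a description of letters in a window, not a shown binding site.

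Apart from the barely detected Nup210l, the importin alpha genes Kpna4 and Kpna3 were the members that rose the most with LPS at both ages. Of 5 tested importin alpha genes, Kpna1, Kpna3, Kpna4 and Kpna6 rose with LPS at both ages. The shares of all genes called higher were 31.2% in young and 27.5% in aged cultures. With library sizes alone, the estimate of Kpna1 turned below 0 at both ages, and the call of Kpna6 in aged cultures was lost. Kpna4 encodes an adaptor known to carry NF-kappaB subunits, and lies at chromosome 3, 69067149 to 69127113, on the minus strand of GRCm38. Kpna4 was at 181, 200, 181, 182 and 188 CPM in young untreated and 177, 197, 203, 177 and 197 CPM in aged untreated cultures. With LPS it reached 437, 483, 429, 387 and 417 CPM in young and 318, 326, 335, 304 and 333 CPM in aged cultures. Every treated culture thus exceeded every untreated one, and every young treated culture exceeded every aged treated one. LPS raised Kpna4 by a log2 fold change of 1.21 (SE 0.056, adjusted p = 1.44e-14) in young and 0.76 (SE 0.055, adjusted p = 6.97e-11) in aged cultures, a 2.31-fold and a 1.70-fold rise.

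Kpna3, which encodes the closest relative of the Kpna4 product, lies at chromosome 14, 61365211 to 61439874, on the minus strand. Kpna3 was at 164, 165, 159, 152 and 166 CPM in young untreated, 163, 184, 179, 174 and 177 CPM in aged untreated, 428, 380, 346, 292 and 343 CPM in young LPS-treated and 279, 306, 367, 297 and 296 CPM in aged LPS-treated cultures. Treated and untreated cultures did not overlap at either age, whereas the young and aged treated cultures did. For Kpna3 the log2 fold change was 1.15 (SE 0.079, adjusted p = 1.78e-11) in young and 0.82 (SE 0.079, adjusted p = 8.73e-09) in aged cultures. Kpna6 rose less, by a log2 fold change of 0.38 in young and 0.25 in aged cultures (adjusted p = 1.31e-05 and 0.00195), and Kpna1 rose by 0.16 and 0.15 (adjusted p = 0.00955 and 0.0162). Leaving out 1 replicate number removed the call of Kpna1 in 1 of 5 cases in young and 3 of 5 in aged cultures. Kpna2, the importin alpha gene with the highest level per kb in untreated cells, was not called, with log2 fold changes of 0.06 in young and 0.09 in aged cultures.

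**Figure D3:**
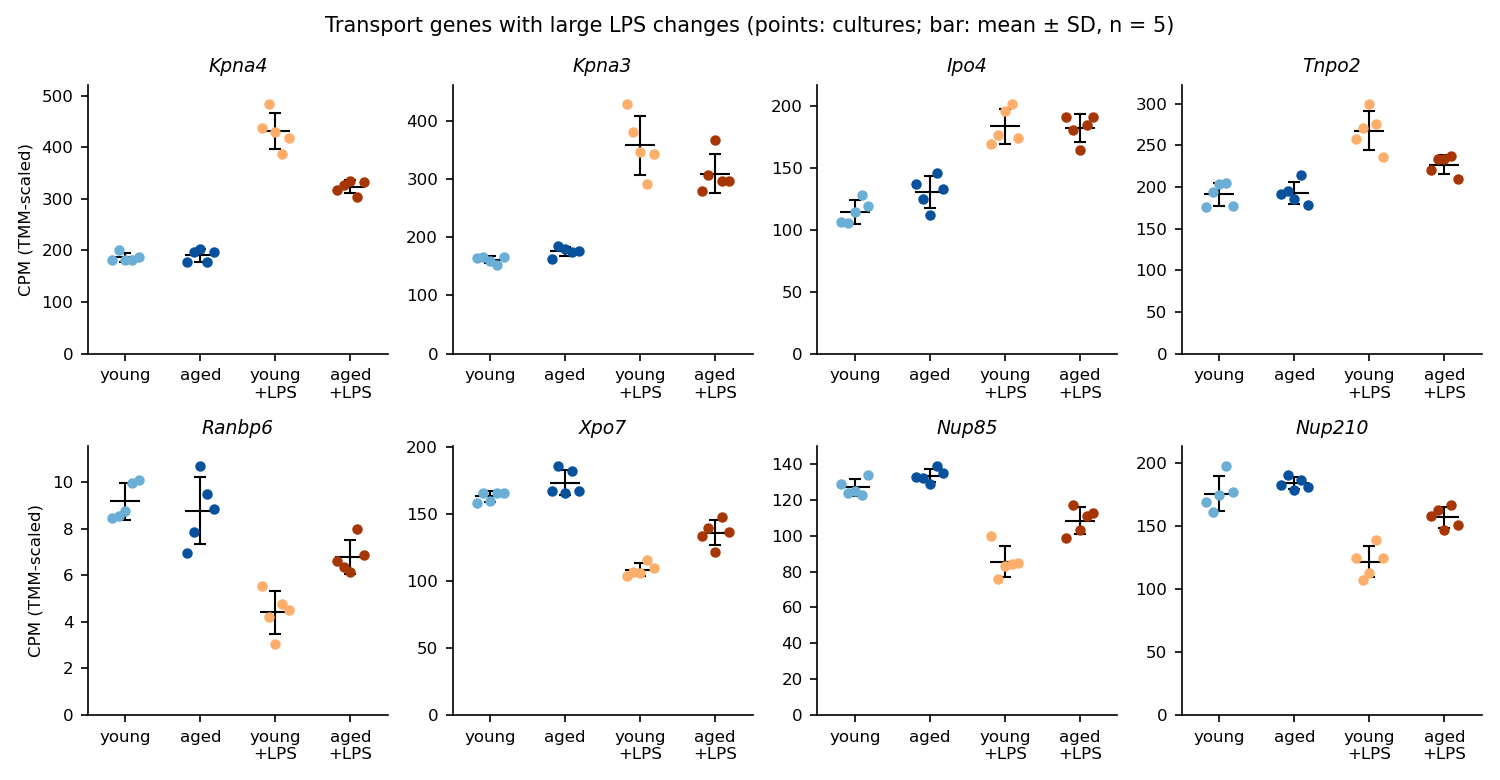
TMM-scaled CPM (linear axes from 0) of 8 members in each culture of the 4 groups, with the mean and SD of 5 cultures as black bars. Kpna4, Kpna3, Ipo4 and Tnpo2 are higher and Ranbp6, Xpo7, Nup85 and Nup210 lower with LPS, and the treated groups of the 2 ages do not overlap in Kpna4, Ranbp6, Xpo7 and Nup210.

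Import receptors of the importin beta family were divided. Of 12 tested, 6 rose and 3 fell in young cultures, and 6 rose and 2 fell in aged cultures. Over all genes, 31.2% were called higher and 33.5% lower in young cultures, and 27.5% and 26.9% in aged cultures. Kpnb1, importin beta itself, was at 945, 959, 970, 1062 and 1014 CPM in young untreated and 1241, 1172, 1142, 1147 and 1169 CPM in young LPS-treated cultures. In aged cultures Kpnb1 was at 1052, 1103, 1030, 1066 and 1058 CPM untreated and 1153, 1271, 1221, 1237 and 1174 CPM with LPS. The groups did not overlap at either age, and the log2 fold change was 0.25 in young and 0.19 in aged cultures (SE 0.042 for both, adjusted p = 2.10e-05 and 0.000557). With library sizes alone these changes were 0.02 and 0.03 and were not called.

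Ipo4, an import receptor for histones and ribosomal proteins, was at 106, 105, 114, 128 and 119 CPM in young untreated and 169, 176, 196, 201 and 174 CPM in young LPS-treated cultures. In aged cultures Ipo4 was at 137, 125, 112, 146 and 133 CPM untreated and 191, 180, 164, 184 and 191 CPM with LPS. Treated cultures lay above all untreated ones at both ages. Ipo4 rose by a log2 fold change of 0.68 (SE 0.070, adjusted p = 1.26e-08) in young and 0.48 (SE 0.070, adjusted p = 4.14e-06) in aged cultures. However, 55.3% of the exon bases of Ipo4 are shared with the same-strand gene model Gm49378, and how reads were divided between them is not stated in the sources used here, so the value of Ipo4 is uncertain to that extent. Gm49378 rose with LPS in young cultures by a log2 fold change of 0.52 (adjusted p = 6.32e-08).

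Tnpo2, a transportin, was at 176, 194, 203, 205 and 177 CPM in young untreated and 257, 271, 299, 275 and 236 CPM in young LPS-treated cultures. In aged cultures Tnpo2 was at 191, 195, 185, 214 and 178 CPM untreated and 220, 234, 233, 237 and 210 CPM with LPS. The young groups did not overlap and the aged ones did. Tnpo2 rose by a log2 fold change of 0.49 (SE 0.063, adjusted p = 4.61e-07) in young and 0.23 (SE 0.063, adjusted p = 0.0031) in aged cultures, higher with LPS in 5 of 5 batches at both ages. Ipo7, a carrier of ribosomal proteins, rose by 0.35 and 0.23 and Ipo13, a receptor that both imports and exports, by 0.33 and 0.25 in young and aged cultures.

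Ranbp6, a little-studied relative of Ipo5 at chromosome 19, 29808400 to 29812974, fell the most of the members. It was at 8.48, 8.57, 8.75, 9.96 and 10.1 CPM in young untreated, 6.98, 7.87, 10.7, 9.5 and 8.86 CPM in aged untreated, 5.53, 4.23, 3.03, 4.77 and 4.49 CPM in young LPS-treated and 6.60, 6.35, 6.14, 7.97 and 6.87 CPM in aged LPS-treated cultures. All young treated cultures lay below every untreated culture, whereas aged treated and untreated cultures overlapped. For Ranbp6 the log2 fold change was -1.07 (SE 0.14, adjusted p = 4.14e-07) in young and -0.38 (SE 0.13, adjusted p = 0.0166) in aged cultures, and in aged cultures the call was lost in 2 of 5 cases when 1 replicate number was left out. Ipo8, a receptor linked to Argonaute proteins, also fell at both ages, as described below with the age comparison. Tnpo1, the transportin for many RNA-binding proteins, fell in young cultures by a log2 fold change of -0.21 (adjusted p = 0.00304). In aged cultures it changed by -0.13 (adjusted p = 0.0649, or 0.0413 with the replicate number as a block).

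Exportins held both directions as well, with 1 of 6 rising and 2 falling at each age. The shares over all genes were 31.2% higher and 33.5% lower in young, and 27.5% and 26.9% in aged cultures. Xpo1, the receptor for leucine-rich export signals, was at 407, 436, 420, 449 and 441 CPM in young untreated and 364, 349, 335, 378 and 376 CPM in young LPS-treated cultures. In aged cultures Xpo1 was at 450, 511, 457, 490 and 474 CPM untreated and 425, 442, 395, 450 and 420 CPM with LPS. Xpo1 had a log2 fold change of -0.26 (SE 0.048, adjusted p = 6.92e-05) in young and -0.16 (SE 0.048, adjusted p = 0.00742) in aged cultures, lower with LPS in 5 of 5 batches at both ages.

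Xpo7, an exportin of broad specificity at chromosome 14, 70654246 to 70766628, fell further. Xpo7 was at 158, 166, 160, 166 and 166 CPM in young untreated, 167, 186, 166, 182 and 167 CPM in aged untreated, 104, 107, 106, 116 and 110 CPM in young LPS-treated and 134, 140, 122, 148 and 137 CPM in aged LPS-treated cultures. None of the treated groups overlapped its untreated group, and the young and aged treated cultures did not overlap either. Xpo7 had a log2 fold change of -0.59 (SE 0.050, adjusted p = 5.44e-10) in young and -0.35 (SE 0.049, adjusted p = 2.73e-06) in aged cultures. Xpo6, the exporter of actin with profilin, rose by 0.36 in young and 0.30 in aged cultures (adjusted p = 2.95e-08 and 8.90e-07). Xpo5, the exporter of precursor microRNAs, and Xpot, the tRNA exporter, were called at neither age. Xpo4 was not called in young cultures with a log2 fold change of 0.15 (adjusted p = 0.071), and passed the threshold with the replicate number as a block (adjusted p = 0.0265).

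Ran, the GTPase that gives transport its direction, was at 448, 412, 399, 409 and 452 CPM in young untreated and 516, 498, 446, 440 and 535 CPM in young LPS-treated cultures. In aged cultures Ran was at 455, 439, 444, 404 and 469 CPM untreated and 511, 519, 475, 470 and 546 CPM with LPS. It was higher with LPS in 5 of 5 batches at both ages, but the young groups overlapped. Ran had a log2 fold change of 0.20 (SE 0.060, adjusted p = 0.00579) in young and 0.19 (SE 0.060, adjusted p = 0.0103) in aged cultures, and with library sizes alone it was -0.021 and 0.03 and not called. The aged call was also lost without replicate 2, where the log2 fold change was 0.18. Ranbp1, which helps Rangap1 act on Ran, rose by 0.33 and 0.26 in young and aged cultures, with 16.9% of its exon bases shared with the same-strand gene model Gm49776. Ranbp3, a cofactor of Xpo1, fell by 0.18 and 0.12 on the log2 scale, and Ranbp9, a scaffold protein, fell by 0.30 and 0.21. Rangap1, the GTPase-activating protein of Ran, was not called, with log2 fold changes of 0.13 at both ages.

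Outer ring nucleoporins fell more often than they rose, beside 33.5% of all genes called lower in young and 26.9% in aged cultures. Of the 6 tested genes of the Y-shaped outer ring, the building block of the cytoplasmic and nuclear rings, 4 fell and 1 rose in young cultures, and 3 fell and 1 rose in aged cultures, with a median log2 fold change of -0.31 and -0.16. Nup85, an outer ring component, was at 129, 124, 125, 123 and 134 CPM in young untreated and 100, 75.7, 83.4, 84.2 and 84.7 CPM in young LPS-treated cultures. In aged cultures Nup85 was at 133, 132, 129, 139 and 135 CPM untreated and 98.6, 117, 103, 111 and 113 CPM with LPS. Treated cultures lay below all untreated ones at both ages. The log2 fold change of Nup85 was -0.57 (SE 0.059, adjusted p = 1.66e-08) in young and -0.30 (SE 0.059, adjusted p = 0.000165) in aged cultures. Nup133 changed by -0.45 and -0.29 and Nup43 by -0.27 and -0.21 in young and aged cultures. Nup107 changed by -0.34 in young cultures (adjusted p = 8.37e-05) and by -0.10 in aged cultures (adjusted p = 0.182). Nup160 went the other way, rising by 0.23 and 0.24, and its call was lost at both ages with library sizes alone.

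In the inner ring, which links the outer rings to the membrane and the channel, Nup155 was called at both ages and Nup35, Nup93, Nup188 and Nup205 at neither. Nup155 was at 206, 214, 213, 214 and 198 CPM in young untreated and 171, 142, 152, 146 and 129 CPM in young LPS-treated cultures. In aged cultures Nup155 was at 193, 212, 214, 220 and 198 CPM untreated and 147, 177, 177, 192 and 153 CPM with LPS. The groups did not overlap at either age, and the aged treated culture with 192 CPM lay just below the lowest aged untreated one. Its log2 fold change was -0.50 (SE 0.071, adjusted p = 1.72e-06) in young and -0.29 (SE 0.070, adjusted p = 0.00116) in aged cultures.

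Nup210, the membrane-spanning nucleoporin at chromosome 6, 91013068 to 91116829, was at 169, 161, 175, 198 and 177 CPM in young untreated and 125, 107, 113, 139 and 125 CPM in young LPS-treated cultures. In aged cultures Nup210 was at 183, 191, 179, 187 and 181 CPM untreated and 158, 163, 147, 167 and 151 CPM with LPS. No treated culture reached the untreated range at either age. Nup210 had a log2 fold change of -0.53 (SE 0.062, adjusted p = 1.05e-07) in young and -0.23 (SE 0.062, adjusted p = 0.00302) in aged cultures. Nup210l, its barely detected relative, was called higher with LPS in young cultures at a mean of 0.531 CPM untreated and 1.37 CPM treated, so this call rests on few counts. In the nuclear basket, Nup50 fell by 0.31 in young and 0.13 in aged cultures on the log2 scale, and Nup153 was called at neither age.

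Nucleoporins of the cytoplasmic side, or of both faces, mostly rose, beside 31.2% of all genes called higher in young and 27.5% in aged cultures. Of 4, Nup88, Nup98 and Ranbp2 rose at both ages, although Nup98 lost its direction in aged cultures with library sizes alone, and Nup214 fell in young cultures by a log2 fold change of -0.16 (adjusted p = 0.0214). Nup88, which holds Nup214 and Nup98 on the pore, was at 132, 129, 126, 137 and 142 CPM in young untreated and 182, 179, 166, 185 and 194 CPM in young LPS-treated cultures. In aged cultures Nup88 was at 154, 156, 144, 153 and 156 CPM untreated and 186, 201, 176, 196 and 196 CPM with LPS. Treated cultures exceeded untreated ones of the same age in every case. Nup88 rose by a log2 fold change of 0.44 (SE 0.048, adjusted p = 3.22e-08) in young and 0.32 (SE 0.048, adjusted p = 5.78e-06) in aged cultures. Ranbp2, the large protein of the cytoplasmic filaments, rose by 0.30 and 0.18, and Nup98 by 0.26 and 0.16. In the central channel Nup54 rose in young cultures by 0.18 (adjusted p = 0.00995), with an estimate of -0.04 when library sizes alone were used, and Nup62 was called at neither age, although in aged cultures its log2 fold change of 0.14 passed the threshold with the replicate number as a block (adjusted p = 0.0235).

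Several nucleoporins and transport factors are needed in dividing cells, so genes of proliferation were measured beside them. Of 16 proliferation genes, 13 fell with LPS in young and 11 in aged cultures, with a median log2 fold change of -0.71 and -0.34. Their summed level was 4428 to 4802 CPM in young and 4470 to 4772 CPM in aged untreated cultures, 2700 to 3501 CPM in young LPS-treated and 3261 to 4180 CPM in aged LPS-treated cultures. The part of this change in the falls of Nup85, Nup133, Nup155, Nup210, Xpo7 and the other members called lower was not tested.

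Without LPS, aged and young cultures differed little in these genes. Of the 49 tested members, 4 were higher in aged cultures, namely Xpo4, Nup88, Ipo5 and Tnpo3, and 1, Ipo8, was lower. Over all genes 11.5% were called, 3.71% higher and 7.81% lower. The median log2 fold change of the members was 0.068, beside -0.014 over all genes, and 38 of the 49 estimates lay above 0. In 7 members the groups did not overlap, against 10.4% of all genes. With the replicate number as a block, 10 members were called, 9 higher and 1 lower, as Xpo1 (adjusted p = 0.00975), Ipo4 (0.0342), Tnpo1 (0.0386), Ipo7 (0.043) and Nup54 (0.0462) joined them. Leaving out replicate 2 left Ipo8 as the single called member, and leaving out replicate 1 gave 7.

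Xpo4, the exporter of the translation factor eIF5A, was at 144, 149, 155, 157 and 142 CPM in young and 163, 206, 188, 196 and 160 CPM in aged untreated cultures, with no overlap. The log2 fold change of Xpo4 was 0.29 (SE 0.070, adjusted p = 0.00907), higher in aged cultures in 5 of 5 batches. Nup88 was higher by 0.20 (SE 0.048, adjusted p = 0.0101), with 144 to 156 CPM in aged against 126 to 142 CPM in young cultures. Ipo5, an importer of ribosomal proteins and histones, was at 731, 678, 663, 698 and 715 CPM in young and 747, 774, 818, 757 and 782 CPM in aged untreated cultures. Its log2 fold change was 0.15 (SE 0.047, adjusted p = 0.0345). Tnpo3, the importer of splicing factors of the SR family, was at 165, 165, 154, 165 and 170 CPM in young and 178, 184, 174, 185 and 179 CPM in aged untreated cultures, a log2 fold change of 0.14 (SE 0.042, adjusted p = 0.0335). The groups did not overlap for Ipo5 or Tnpo3, but the call of Ipo5 held in 1 and that of Tnpo3 in none of the 5 fits that left out a replicate number. Xpo1 lay just outside the threshold, with a log2 fold change of 0.15 (SE 0.048, adjusted p = 0.0501) and 5 of 5 batches higher in aged cultures.

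Ipo8 was the member lower in aged cultures. It was at 69.2, 68.8, 72.9, 71.1 and 64.0 CPM in young untreated, 55.7, 63.2, 56.7, 55.7 and 59.7 CPM in aged untreated, 64.0, 60.0, 53.7, 57.9 and 59.1 CPM in young LPS-treated and 48.2, 53.4, 50.6, 52.9 and 50.6 CPM in aged LPS-treated cultures. Neither the untreated nor the treated groups of the 2 ages overlapped. Its log2 fold change between aged and young cultures was -0.25 (SE 0.052, adjusted p = 0.00297) without LPS and -0.20 (SE 0.053, adjusted p = 0.00585) with LPS. The untreated call was kept in all 5 fits that left out a replicate number, whereas the call with LPS was lost without replicate 1, and with library sizes alone it was also lost (-0.12, adjusted p = 0.0722). With LPS, Ipo8 changed by -0.23 in young and -0.19 in aged cultures (adjusted p = 0.000486 and 0.00486).

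**Figure D4:**
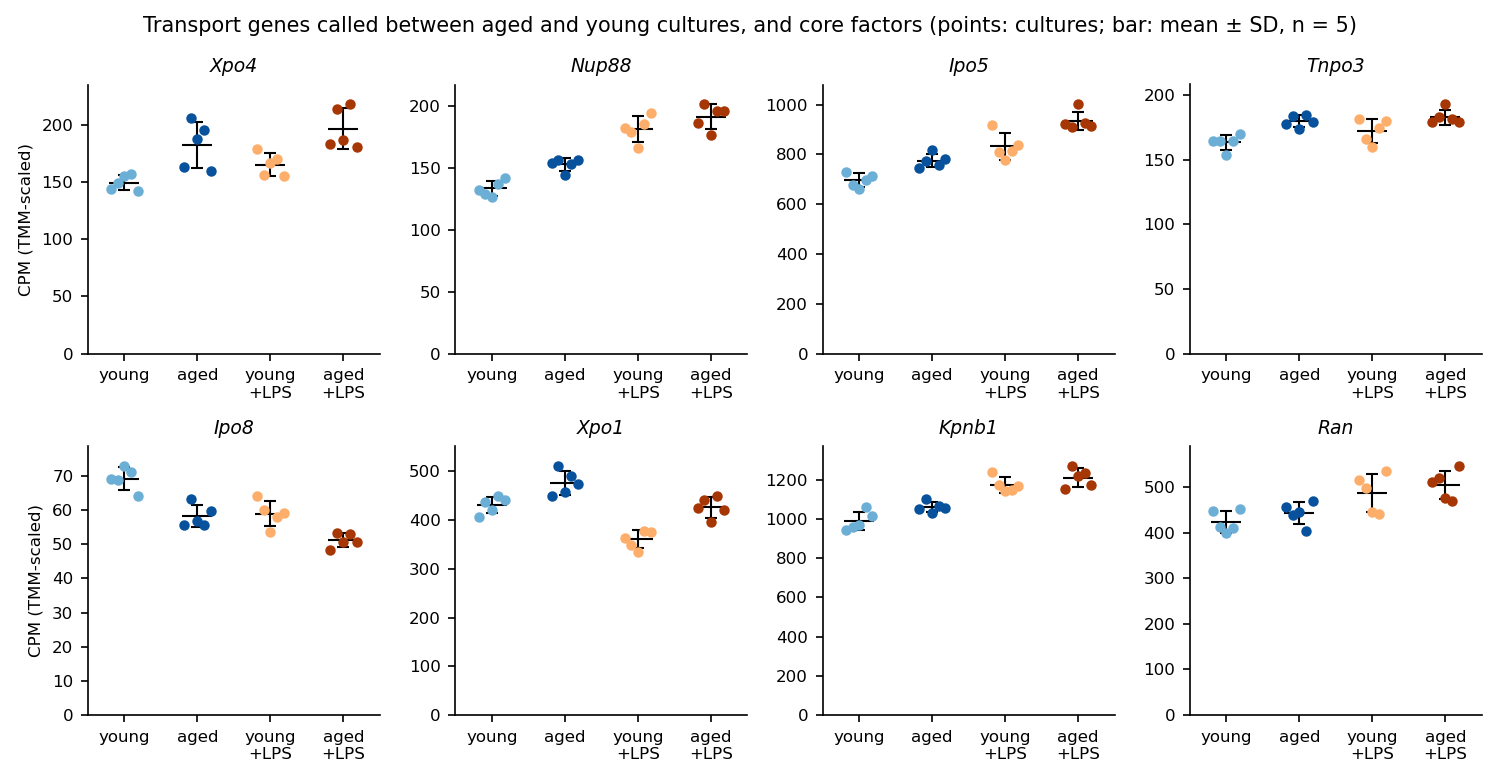
TMM-scaled CPM (linear axes from 0) in each culture of the 4 groups for the 5 members called between aged and young untreated cultures and for Xpo1, Kpnb1 and Ran, with the mean and SD of 5 cultures as black bars. Xpo4, Nup88, Ipo5 and Tnpo3 are higher and Ipo8 lower in all 5 aged than in all 5 young untreated cultures.

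With LPS, more members separated the ages. Of 49, 18 were higher and 6 lower in aged than in young LPS-treated cultures, against 29% of all genes called, 14% higher and 15% lower. The median log2 fold change of the members was 0.085, beside 0.0085 over all genes, and the groups did not overlap for 13 members, against 14.8% of all genes. Library sizes alone gave 30 higher and 2 lower, while the median of all genes moved to 0.088. Higher in aged cultures were 4 of 6 outer ring genes, 3 of 5 inner ring genes and 4 of 6 exportin genes, and lower were 2 of 5 importin alpha genes. Of 16 proliferation genes, 11 were also higher in aged LPS-treated cultures, with a median log2 fold change of 0.37, and their part in these differences was not tested.

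Ranbp6 was higher in aged LPS-treated cultures by a log2 fold change of 0.63 (SE 0.14, adjusted p = 0.00163), Nup210 by 0.37 (SE 0.062, adjusted p = 0.000116) and Xpo7 by 0.33 (SE 0.050, adjusted p = 3.39e-05), each without overlap. Nup35, the inner ring gene, was at 16.2, 14.7, 14.0, 12.2 and 16.7 CPM in young and 16.3, 22.7, 18.5, 20.9 and 19.0 CPM in aged LPS-treated cultures. Its log2 fold change was 0.40 (SE 0.089, adjusted p = 0.00152), with aged culture 1 inside the young range. Nup107 was at 74.4, 64.3, 68.7, 64.4 and 65.5 CPM in young and 80.3, 92.7, 77.3, 98.6 and 83.2 CPM in aged LPS-treated cultures, a log2 fold change of 0.36 (SE 0.065, adjusted p = 0.000244) with no overlap. Xpo1 was higher in aged treated cultures by 0.24 (SE 0.048, adjusted p = 0.000538), again without overlap. Among members with lower levels, Kpna4 differed by -0.41 (SE 0.055, adjusted p = 6.90e-06), Tnpo2 by -0.24 (SE 0.063, adjusted p = 0.00592) and Kpna3 by -0.21 (SE 0.078, adjusted p = 0.0465). The difference of Kpna3 held in 2 of 5 fits that left out a replicate number, the exceptions being those without replicates 1, 2 and 5. With library sizes alone the differences of Tnpo2 (-0.16, adjusted p = 0.0654) and Kpna3 (-0.13, adjusted p = 0.177), and those of Ipo8 and Ranbp2, were no longer called. Kpna6 differed by -0.14 (adjusted p = 0.0954, or 0.0466 with the replicate number as a block). Leaving out replicate 2 reduced the called members to 16. The calls of Ipo5, Nup155, Nup210l, Nup43, Ranbp3, Xpo4 and Xpot were among those lost without it, and the call of Ranbp2 was lost without replicate 1 or 5.

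The last question was whether the LPS response itself differed between the ages, tested as the difference of the responses, aged minus young. It was called for 4 of the 49 members, 3 of them positive and 1 negative, against 6.39% of all genes, 4.12% positive and 2.27% negative. Library sizes alone gave 6 positive and 1 negative. The negative one was Kpna4, whose rise was smaller in aged cultures by 0.44 in log2 units (difference -0.44, SE 0.078, adjusted p = 0.00125), and this call was kept in all 5 fits that left out a replicate number. The positive ones were members whose fall was smaller in aged cultures, Ranbp6 with 0.69 (SE 0.19, adjusted p = 0.0285), Nup210 with 0.30 (SE 0.087, adjusted p = 0.0405) and Xpo7 with 0.24 (SE 0.070, adjusted p = 0.0424). Their calls held in 2, 1 and 1 of these 5 fits, and leaving out replicate 2 or replicate 5 left Kpna4 as the single call. With the replicate number as a block 7 members were called, as Tnpo2 (-0.25, adjusted p = 0.0102), Nup50 (0.18, adjusted p = 0.0428) and Nup85 (0.27, adjusted p = 0.048) joined them. For Kpna3 the difference was -0.33 (SE 0.11, adjusted p = 0.0839).

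On the TMM scale, 27 of the 29 members called with LPS at both ages had the smaller estimate in aged cultures (93.1%). The same held for 5319 of the 6449 genes called at both ages in the whole table (82.5%). A smaller response of the members in aged cultures therefore stood beside a smaller response of most genes. These counts were not repeated with library sizes alone, which removed or turned several of the LPS calls. The larger estimate in aged cultures was that of Ipo5, with 0.27 against 0.26, and of Nup160, with 0.24 against 0.23. Of 16 proliferation genes, 7 had a called positive difference.

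**Figure D5:**
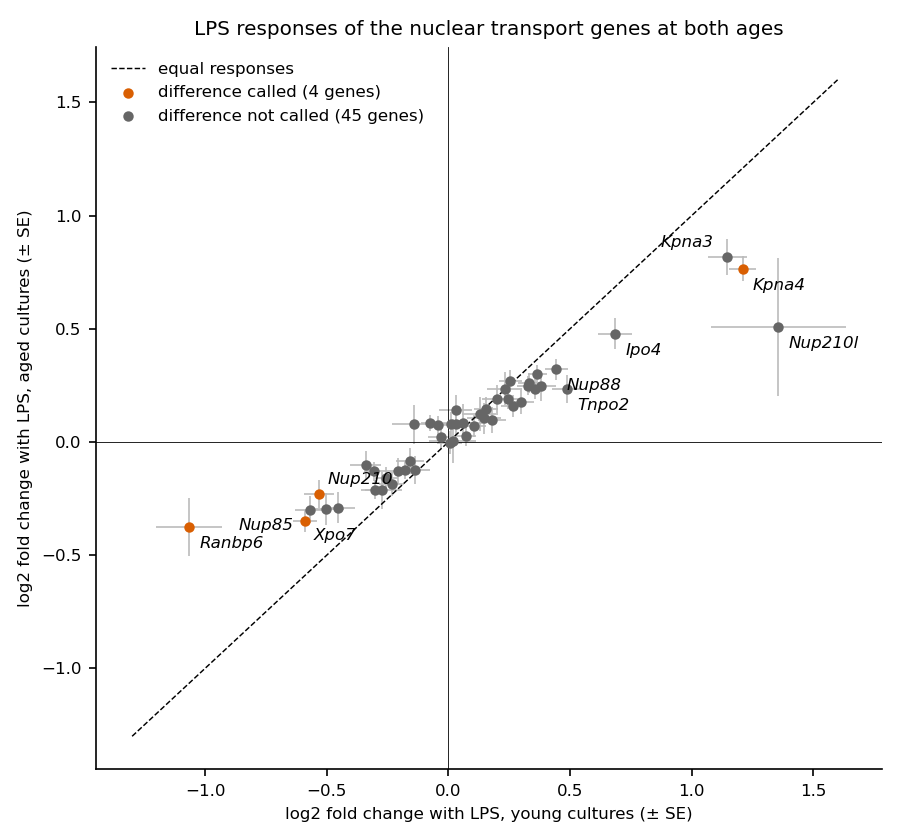
Log2 fold change with LPS in young (x axis) and aged (y axis) cultures for the 49 tested members, with SE bars, a dashed line of equal responses, and the 4 members whose responses differed in orange. Most members lie between the dashed line and the horizontal axis, and Kpna4 and Ranbp6 are the most distant of the orange points from the line.

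Transport genes with other names were read from a list for comparison, of which 33 were tested. With LPS in young cultures 11 rose and 10 fell, and in aged cultures 9 rose and 4 fell, beside 64.6% and 54.4% of all genes called. With library sizes alone 3 were higher and 17 lower in young and 2 higher and 15 lower in aged cultures, and 4 and 2 of the called genes changed sign. The largest rises in young cultures were those of Nmd3, the export adaptor of the large ribosomal subunit, at 0.53 (adjusted p = 3.15e-08), the mRNA export helicase Ddx39b at 0.36 (adjusted p = 2.77e-07) and Ranbp10, a relative of Ranbp9, at 0.36 (adjusted p = 7.72e-06). Ranbp10 thus rose where Ranbp9 fell. The largest falls were those of the nucleoporin gene Aaas at -0.43 (adjusted p = 1.45e-06), the membrane nucleoporin gene Pom121 at -0.34 (adjusted p = 0.000259) and the mRNA export factor Gle1 at -0.27 (adjusted p = 5.95e-05). In aged cultures Ranbp10 rose by 0.46, Nmd3 by 0.36 and Nxt2, an mRNA export cofactor, by 0.29 (0.13 and not called with library sizes alone), while Pom121, the cap-binding gene Ncbp2 and Aaas changed by -0.25, -0.17 and -0.16.

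Between aged and young untreated cultures, 5 of these 33 genes (15.2%) were higher in aged cultures, against 3.71% of all genes tested. The largest differences were those of Nupl2, a cytoplasmic-side nucleoporin, at 0.33 (adjusted p = 0.0137), the mRNA export factor Rae1 at 0.21 (adjusted p = 0.0068) and Rcc1, the nucleotide exchange factor of Ran, at 0.21 (adjusted p = 0.0196). With LPS 11 were higher in aged cultures (33.3%), against 14% of all genes tested. These were led by the Ran-binding gene Rangrf at 0.37 and the mRNA export genes Alyref and Thoc7, both at 0.27. Library sizes alone gave 17 higher, and the replicate number as a block gave 14. Nupl1, the older symbol of Nup58, was called in neither age comparison nor with LPS, with log2 fold changes of 0.07 to 0.12 in the 4 comparisons.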

How the data were processed

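The authors prepared stranded poly(A) libraries, aligned the reads by STAR and assigned them to genes by featureCounts, and the resulting counts were deposited per Ensembl gene as whole numbers without normalization. The submitters' processing notes name FastQC 0.11.8, STAR 2.6.1d, featureCounts 1.5.1 and GRCm38 for mouse. How featureCounts treated strand, reads with several alignments and overlapping gene models is not given in the sources used here, so genes with overlaps are uncertain.

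Columns were assigned to the 20 samples by their names. Symbols and exon lengths came from GENCODE M21 (GRCm38), which holds 55227 of the 55487 identifiers. All 20 libraries entered one edgeR 4.0.16 quasi-likelihood fit (R 4.3.3, limma 3.58.1) with group as the factor, TMM factors of 0.8911 to 1.083 and filterByExpr. P-values were adjusted by Benjamini-Hochberg over all 12799 genes tested, with a threshold of 0.05. Total counts were 11371508 to 16829292 per library, so 3 counts correspond to 0.165 to 0.296 CPM, a floor that covers counting error only.

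Whether batch numbers pair the cultures was checked by correlating, across genes, how far cultures with the same number departed from the mean of their group, with a mean r of 0.146 (range -0.214 to 0.394, 19 of 30 pairs above 0.1). Between untreated and LPS-treated cultures of the same age r was 0.122 to 0.394, whereas between cultures of different ages it was -0.214 to 0.275. By this measure the pairing was weaker across ages, so blocked values and batch counts of the age comparisons are less certain. The pairing itself comes from the batch number in the labels. Blocked values are given where they change a call.

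The members and gene lists were chosen with earlier results of these data known. Values are given in full for Ran, Kpnb1, Xpo1 and, in each comparison, for up to 4 called members per direction with the largest change and at least 1 log2 CPM, and for up to 3 called genes per direction of the list of related genes. Other members named were chosen after their values were seen. Alternatives were DESeq2 1.42.0, the replicate block, other scaling factors, other filters, only the groups compared, other thresholds and each replicate number left out. Figures and tables used Python 3.11.15, pandas 2.3.3, numpy 2.4.6 and matplotlib 3.10.9.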

Additional observations from a re-analysis of the deposited data

Results flagged for a closer look

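The LPS responses of both ages differed, by the test of the difference itself, for Kpna4 (-0.44, aged minus young, log2), Ranbp6 (0.69), Nup210 (0.30) and Xpo7 (0.24). A single culture stood apart from the others of its group in 3 of 76 combinations of a gene and a group, a number to be read against the 1 in 20 that chance gives. Nup88 was at 144 CPM in aged untreated culture 3, against 153 to 156 CPM in the others. In aged LPS-treated culture 3, Ipo5 was at 1001 CPM against 912 to 925 CPM, and Tnpo3 at 193 CPM against 179 to 183 CPM.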

How the results depend on the processing

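The calls with LPS, and between the ages with LPS, stayed within 1.5 times of the main number under every alternative except a log2 fold change of at least 0.5, which left 9 of 34 members in young, 2 of 29 in aged and 2 of 24 between LPS-treated cultures. Small numbers of calls moved more. Between untreated cultures, the 5 calls became 9 with DESeq2, 10 with the replicate block and 9 with library sizes alone. They became 3 with no filter on low counts and 8 with only the groups compared. At an adjusted p of 0.01 they were 2, and at a log2 fold change of at least 0.5 they were 0. Leaving out a replicate number gave 1 to 7. Without a limit on the fold change, 16 members had an unadjusted p below 0.05 in the main edgeR fit. For the difference of the LPS responses, the 4 calls became 8 with DESeq2, 7 with the replicate block, 2 with size factors of DESeq2, 7 with library sizes alone, and 1 at an adjusted p of 0.01 or at a log2 fold change of at least 0.5. Leaving out a replicate number gave 1 to 6. With library sizes alone Ran changed by -0.021 with LPS in young cultures, and the median of the members by -0.19 in young and -0.08 in aged cultures. Single-gene values were recomputed for the genes given in full only. Of these values, 577 kept their direction and side of the threshold, 80 lost and 7 gained a call, and 1 (Ran) turned. The adjusted p of 0.01 and the fold change limit of 0.5 reused the main estimates. They could only keep or remove a call, and gave 39 and 19 of the 577. Outside this tally, the called rises of Kpna1 and Nup54 in young and of Kpna1 and Nup98 in aged cultures also turned with library sizes alone. In other members the replicate block changed no call beyond those given beside the results. The causes of these changes were not tested. Counts limit Nup210l (at most 23 counts), Nup62cl and Kpna7.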
